A study of Mus musculus with 14 samples.

Results

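Liver tumours of mice lacking Cdk18 (CDK18KO) were compared with wild-type tumours (WT) across all expressed genes. The 10 libraries of these genotypes, 5 CDK18KO and 5 WT, are 10 of the 14 in the series. The other 4, from Cdk16 and Cdk18 double knockout tumours (DKO), were not compared here. They entered the filter on low counts, the scaling factors and the estimate of the spread between libraries. Per the labels' protocols, tumours of every genotype were started by hydrodynamic injection, a rapid tail-vein infusion that takes DNA into hepatocytes, here plasmids carrying mouse c-Myc and β-catenin. Animals were followed until a tumour measured 15 mm, distress, or 8 weeks. One protocol text covers all libraries, and it gives tamoxifen at 75 mg/kg on 5 days to animals with floxed Cdk16 and Cre-ERT2 and to Cre-ERT2 controls, with collection 10 days later. The making of the Cdk18 allele, strain, age, and any tamoxifen given to the WT and CDK18KO animals were not given in the sources used here. RNA came from bulk tumour tissue, so a lower value for a gene of 1 cell type can mean fewer such cells or less RNA per cell, and these cannot be told apart. The labels name the libraries as replicates without saying that each came from another animal, so p-values measure the spread between these samples.

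CDK18 belongs to the PCTAIRE kinases, a branch of the cyclin-dependent kinase family that also holds CDK16 and CDK17 and binds cyclin Y and related cyclins rather than the cyclins that drive the classical cell cycle. The related PFTAIRE kinases CDK14 and CDK15 use cyclin Y as well. CDK18 has been linked to the replication stress response in cultured cells. Hepatocytes make most plasma proteins, bile acids and urea and clear drugs and toxins, and hepatocellular tumours keep these programmes to very different degrees. Hepatoblastoma-like tumours instead carry genes of the fetal liver, of bile duct epithelium and of embryonic patterning.

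Total counts ran from 1442417 (WT 5) to 6068209 (WT 2), and 21659 to 25986 genes had a count in the WT libraries against 18861 to 23000 in the CDK18KO libraries. Libraries correlated more within WT (Pearson r over genes 0.813 to 0.924, median 0.874) than within CDK18KO (0.71 to 0.896, median 0.806), and pairs across the genotypes ran from 0.599 to 0.908. The hepatocyte transcripts Ahsg and Apob had counts in all 10 libraries. On the leading axis of variation, computed with the DKO libraries included, the genotypes overlapped. WT 2 (-2.5) lay inside the knockout range, beyond CDK18KO 1 (-18.2) and CDK18KO 3 (-15.8), the knockout libraries nearest to the other WT libraries. Y-linked genes stood at 204 CPM (counts scaled to a common library size with TMM factors) in WT 3, 788 in WT 5 and 348 in CDK18KO 1. The other 7 libraries had 33 CPM or less, so libraries high in Y-linked genes were not evenly spread over the genotypes. Xist, an X-linked RNA of female cells, stood at 32, 111 and 64.3 CPM in WT 3, WT 5 and CDK18KO 1. In the other 7 libraries it ran from 441 CPM (WT 2) to 1293 CPM (CDK18KO 4). Whether these markers stand for the sex of the animals was not tested.

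Of 77981 genes counted, 13997 were frequent enough to be tested, and 1 was called at an adjusted p under 0.05 by edgeR's quasi-likelihood test, 0.00714% of them, and it was higher in CDK18KO. At an unadjusted p under 0.05 there were 2361 genes (16.9%), of which 1618 were higher in CDK18KO (11.6%) and 743 lower (5.31%). In 378 genes (2.7%) the 5 CDK18KO values and the 5 WT values did not overlap, all CDK18KO libraries lying above WT in 154 (1.1%) and below in 224 (1.6%). For a single gene that separation has an exact two-sided permutation p of 0.00794, the smallest that 5 against 5 can give. DESeq2, run on the whole table with its own filtering, called 942 of 17080 genes (5.52%), 608 higher (3.56%) and 334 lower (1.96%). The edgeR count was 74 without CDK18KO 1 and 0 without any other single library. The unadjusted count was 1094 (567 higher, 527 lower) with Y-linked expression as a covariate, and 1459 to 3276 when 1 library was left out, lowest without CDK18KO 2 and highest without CDK18KO 1. By the sign of the log2 fold change, 49.4% of all genes tested were higher in CDK18KO. The median log2 fold change of all genes was -0.0097, and -0.128 with upper-quartile factors, which shift every gene alike and gave 1294 higher and 895 lower at an unadjusted p.

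The direction of the separated genes went with expression level. Among the 3500 genes with the lowest mean expression (0.343 to 8.83 CPM), 124 genes lay below WT in every CDK18KO library and 18 above. Among the 3499 with the highest (71.9 CPM and more), 53 lay above and 7 below. Unadjusted calls had the same order, with 270 higher and 343 lower in the lowest group and 482 higher and 69 lower in the highest. Values that follow, where no other scale is named, are CPM per library and log2 fold changes of CDK18KO over WT with their standard error (SE). Beside the list counts that follow stand the shares of all genes tested. At an unadjusted p under 0.05 these were 11.6% higher and 5.31% lower. Without overlap they were 1.1% above WT and 1.6% below, and DESeq2 called 3.56% higher and 1.96% lower of its own 17080 genes. A single member without overlap is too few to set a list apart. A list member with counts in 1 genotype alone could pass the filter, and one scarce in every genotype could not. The plot of all genes tested shows hepatocyte and interferon genes on the right and epithelial, developmental and stromal genes on the left.

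**Figure D1:**
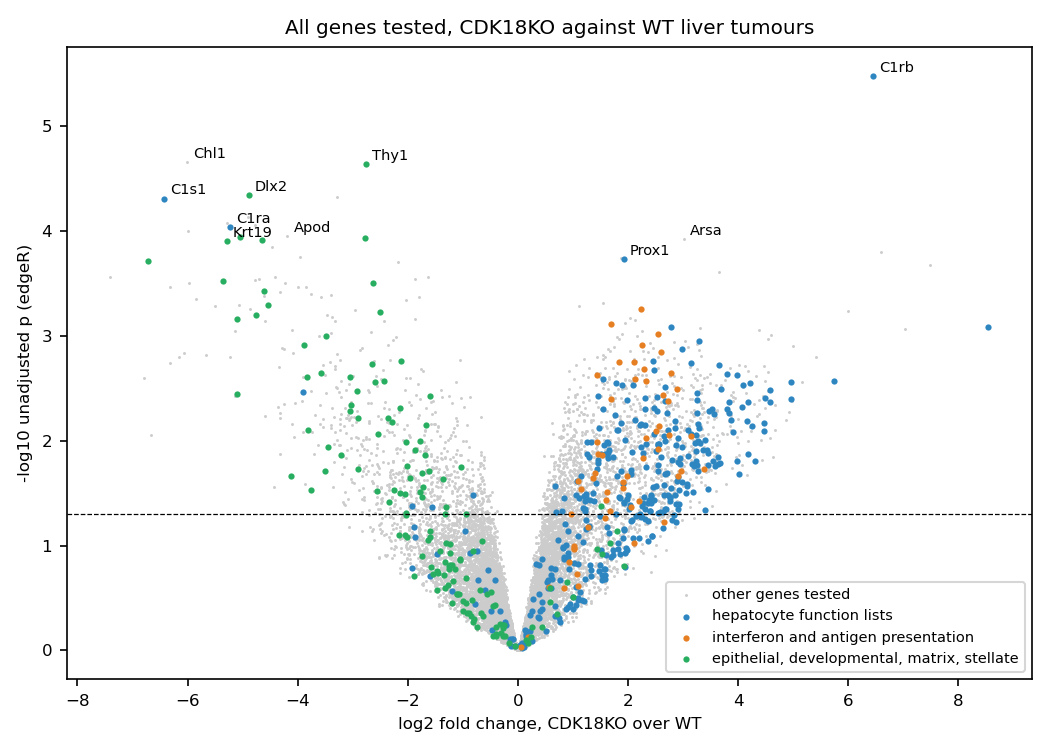
Each of the 13997 genes tested by its log2 fold change (CDK18KO over WT, horizontal) and the -log10 of its unadjusted edgeR p (vertical), with a dashed line at the threshold of 0.05. Genes of the hepatocyte lists (blue) and interferon and antigen presentation lists (orange) lie mostly right of 0, genes of the epithelial, developmental, matrix and stellate lists (green) mostly left, and C1rb stands alone at the top right.

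The targeted gene had few counts. Cdk18, at chr1:132112237-132139684 in GRCm38, stood at 2.22, 10.4, 5.24, 1.26 and 4.63 CPM in WT 1 to 5 and 1.86, 1.06, 3.42, 2.64 and 0.927 CPM in CDK18KO 1 to 5. The groups overlapped, with WT 1 and WT 4 within the range of the knockout libraries (log2 fold change -1.24, SE 0.63, edgeR adjusted p = 0.338). Counts in the knockout libraries summed to 29, so the 3′ tags were not at 0. Which part of the gene was altered is unstated in the labels, and tags from a 3′ end outside that part do not check them. Without WT 2 the log2 fold change was -0.69.

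Its close relative Cdk16 stood at 47.8, 59.2, 53, 40.0 and 45.5 CPM in WT 1 to 5 and 65.8, 36.7, 37, 32.7 and 31 CPM in CDK18KO 1 to 5, with CDK18KO 1 above every WT library and the other 4 knockout libraries below every WT library (log2 fold change -0.27, SE 0.32, edgeR adjusted p = 0.691). Without CDK18KO 1 the log2 fold change was -0.52 (SE 0.32, edgeR adjusted p = 0.343). Cdk14, a PFTAIRE kinase, stood at 23.4, 25, 50.9, 70.6 and 39.3 CPM in WT 1 to 5 and 84.5, 3.19, 29.8, 0.991 and 5.1 CPM in CDK18KO 1 to 5. Its knockout values spread over a range wider than the WT range on both sides (log2 fold change -0.75, SE 0.95, edgeR adjusted p = 0.717). Of 8 tested PCTAIRE and PFTAIRE kinases and their cyclins, 3 were higher and 5 lower, the median log2 fold change was -0.319, and none passed at an unadjusted p under 0.05. The drivers of the model were present in both genotypes. Myc, whose mouse cDNA was injected, stood at 38.6, 15.5, 24.4, 14.5 and 22.4 CPM in WT 1 to 5 and 15.8, 5.32, 27.6, 9.91 and 8.8 CPM in CDK18KO 1 to 5, with 3 knockout values under every WT value (log2 fold change -0.76, SE 0.49, edgeR adjusted p = 0.447). Ctnnb1, encoding β-catenin, stood at 781, 612, 858, 834 and 1282 CPM in WT 1 to 5 and 842, 506, 640.4, 501 and 555 CPM in CDK18KO 1 to 5, again with overlap (log2 fold change -0.52, SE 0.25, edgeR adjusted p = 0.311). Counts do not separate the plasmid transcripts from the endogenous ones.

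Genes near the targeted locus can travel with it when mice are bred, so they were read separately. Other stretches of the genome were not read in this way. Within 5 Mb of Cdk18 lay 94 tested genes, with a median log2 fold change of -0.0208. Of these, 45 were higher, 7 passed higher and 6 lower at an unadjusted p under 0.05, and Ipo9, an importin, was the member without overlap, at 48.9, 46.8, 47.7, 51.4 and 48.6 CPM in WT 1 to 5 and 35.1, 35.6, 42.2, 29.7 and 44.5 CPM in CDK18KO 1 to 5 (log2 fold change -0.38, SE 0.2, edgeR adjusted p = 0.344). The smallest p belonged to Acmsd, an enzyme of tryptophan breakdown in liver and kidney, at 0, 0.412, 0, 0.315 and 1.54 CPM in WT 1 to 5 and 1.24, 19.7, 5.59, 36.3 and 0.463 CPM in CDK18KO 1 to 5. Acmsd had 6 counts in all WT libraries together and overlapped between WT 5 and 2 knockout libraries (log2 fold change 5.01, SE 1.25, edgeR adjusted p = 0.162). Atp2b4, a plasma membrane calcium pump, stood at 38.2, 22.1, 17.5, 32.8 and 74.8 CPM in WT 1 to 5 and 18.9, 8.51, 8.38, 4.62 and 13.9 CPM in CDK18KO 1 to 5, overlapping only between CDK18KO 1 and WT 3 (log2 fold change -1.75, SE 0.47, edgeR adjusted p = 0.162). Golt1a, a Golgi transport protein, differed by log2 3.23 (SE 1.14), and Nr5a2 is described with the hepatocyte regulators. The 13 of 94 genes at an unadjusted p under 0.05 stood beside 16.9% of all genes tested.

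C1rb was the gene called by edgeR. C1r and C1s are the proteases of the complement C1 complex, which hepatocytes secrete, and mice carry paired copies of each gene. C1rb (chr6:124570294-124581171) stood at 2.22, 4.26, 2.04, 0 and 0.771 CPM in WT 1 to 5 and 66.8, 398, 68.3, 189.9 and 196 CPM in CDK18KO 1 to 5. The lowest knockout library, CDK18KO 1, was far above WT 2, the highest WT library (log2 fold change 6.45, SE 0.88, edgeR adjusted p = 0.046). C1ra (chr6:124512405-124523443) ran the other way, at 19.7, 112, 28.8, 10.4 and 50.1 CPM in WT 1 to 5 and 0, 2.66, 0, 1.65 and 1.85 CPM in CDK18KO 1 to 5, and C1s1 (chr6:124530345-124542359) did too, at 3.34, 40.3, 9.31, 6.62 and 23.1 CPM in WT 1 to 5 and 0, 0, 0, 0.33 and 0.463 CPM in CDK18KO 1 to 5. Neither C1ra (log2 fold change -5.23, SE 0.97, edgeR adjusted p = 0.102) nor C1s1 overlapped between the genotypes. C1s1 had 2 counts in the knockout group against 385 in WT, a ratio of 166 (exact 95% counting interval 45.5 to 1370). The C1rb call was lost when any single library other than CDK18KO 1 was left out (adjusted p 0.0501 to 0.166), and with the Y-linked covariate (0.183), without the 3 libraries high in Y-linked expression (0.192) and with only WT and CDK18KO in the fit (0.0589).

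The copies are close in sequence, which bears on how reads were assigned. Over 2432 aligned columns the GENCODE transcripts C1ra-201 (2981 bases) and C1rb-201 (2429 bases) had 97.9% identical bases. C1ra-201 runs on for 319 bases past the aligned part at its 3′ end, and C1rb-201 for 1 base. The library kit reads from the 3′ end, so a tag in that last stretch of C1ra has no counterpart in the C1rb transcript, whereas a tag further upstream may. The split between C1ra and C1rb is therefore uncertain. Their summed level does not depend on how the counted tags were split. It still depends on which tags were counted, and whether tags matching both copies were lost could not be checked. The sum was 21.9, 116, 30.9, 10.4 and 50.9 CPM in WT 1 to 5 and 66.8, 401, 68.3, 192 and 198 CPM in CDK18KO 1 to 5. The sums overlapped, with WT 2 above CDK18KO 1 and CDK18KO 3. Sult2a3, a sulfotransferase of a family with several close copies, was also among the 25 genes with the smallest p, at 0, 0.412, 0.291, 1.26 and 0.771 CPM in WT 1 to 5 and 10.6, 204, 34.5, 254 and 2.32 CPM in CDK18KO 1 to 5 (log2 fold change 7.5, SE 1.53, edgeR adjusted p = 0.118). All 5 knockout libraries lay above WT, from CDK18KO 5, near WT 4, to CDK18KO 4, and reads may be shared with other Sult2a copies.

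Of the 25 genes with the smallest p, 19 were lower in CDK18KO and 6 higher, and DESeq2 called all 25. Chl1 (chr6:103510586-103750211), a neural cell adhesion molecule, stood at 7.79, 9.2, 2.62, 6.62 and 10.8 CPM in WT 1 to 5 and 0.311, 0, 0, 0 and 0 CPM in CDK18KO 1 to 5. It had 1 count in the knockout group against 132, a ratio of 114 (20.0 to 4520). Chl1, C1rb, C1ra and C1s1 all lie on chromosome 6. There 3.9% of tested genes were without overlap, against 2.7% of all genes tested. Shares by chromosome ran from 1.58% (chromosome 19) to 4.13% (chromosome 16), and a linked difference on chromosome 6 was not tested. Ptgfr, the prostaglandin F receptor, stood at 6.3, 10.7, 6.4, 4.41 and 24.7 CPM in WT 1 to 5 and 0.311, 0.532, 0.311, 0 and 0.463 CPM in CDK18KO 1 to 5, and Apod, a lipocalin that carries small lipids, at 44.1, 37.8, 58.5, 60.5 and 13.1 CPM in WT 1 to 5 and 2.17, 1.06, 4.66, 0.33 and 3.24 CPM in CDK18KO 1 to 5. Neither Ptgfr (log2 fold change -4.9, SE 0.89, edgeR adjusted p = 0.102) nor Apod (log2 fold change -4.19, SE 0.8, edgeR adjusted p = 0.102) overlapped between the genotypes. Tesc, a calcium-binding protein, differed by log2 -4.46 (SE 0.87) and Zfp991, a zinc finger protein, by log2 -2.17 (SE 0.44), also without overlap. Rps4l, an intronless copy of a ribosomal protein gene whose reads may be shared with its parent, stood at 38.9, 192, 87.3, 11 and 39.3 CPM in WT 1 to 5 and 2.17, 0.532, 0.621, 0 and 2.32 CPM in CDK18KO 1 to 5. Its lowest WT value, in WT 4, was still above the highest knockout value (log2 fold change -5.99, SE 1.13, edgeR adjusted p = 0.102).

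The higher genes beside C1rb and Sult2a3 were Arsa, Rnf213, Prox1 and a predicted gene, all above WT in every knockout library. Arsa, the lysosomal enzyme that breaks down sulfatides, stood at 3.71, 5.5, 2.33, 2.21 and 3.09 CPM in WT 1 to 5 and 9.01, 38.8, 7.14, 66.7 and 18.5 CPM in CDK18KO 1 to 5 (log2 fold change 3.02, SE 0.58, edgeR adjusted p = 0.102). Its values spread from CDK18KO 3 to CDK18KO 4, with the WT libraries close together. Rnf213, a large interferon-inducible ubiquitin ligase, stood at 5.56, 16.1, 9.31, 4.73 and 13.1 CPM in WT 1 to 5 and 24.8, 42, 36.6, 48.6 and 28.3 CPM in CDK18KO 1 to 5 (log2 fold change 1.88, SE 0.38, edgeR adjusted p = 0.115). Prox1, a homeodomain factor of hepatocytes and lymphatic vessels, stood at 77.5, 133, 41.3, 66.2 and 126 CPM in WT 1 to 5 and 263, 422, 575, 225 and 195 CPM in CDK18KO 1 to 5 (log2 fold change 1.92, SE 0.39, edgeR adjusted p = 0.115). For Prox1 the lowest knockout library, CDK18KO 5, was still above WT 2, the highest WT library.

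The regulators of hepatocyte identity stood higher in CDK18KO as a group. Of 28 tested hepatocyte transcription factors 25 were higher, the median log2 fold change was 1.92, and 15 passed higher at an unadjusted p under 0.05 against 0 lower. DESeq2 called 8 of them, and Prox1 alone was without overlap. Nr5a2, a nuclear receptor of bile acid and cholesterol genes, stood at 4.08, 32.7, 0.582, 3.47 and 8.49 CPM in WT 1 to 5 and 27.3, 306, 58.4, 263 and 151 CPM in CDK18KO 1 to 5. Only CDK18KO 1 lay below WT 2 (log2 fold change 3.98, SE 1.08, edgeR adjusted p = 0.162). Nr1h4, the bile acid receptor FXR, stood at 0.742, 16.3, 1.16, 0.63 and 6.17 CPM in WT 1 to 5 and 12.1, 90.4, 13.4, 93.1 and 40.3 CPM in CDK18KO 1 to 5, with CDK18KO 1 and CDK18KO 3 below WT 2 (log2 fold change 3.25, SE 0.93, edgeR adjusted p = 0.162). Ppara, the receptor that switches on fatty acid oxidation, stood at 2.97, 21.6, 0.582, 6.93 and 11.6 CPM in WT 1 to 5 and 32.6, 314, 14.9, 98.8 and 34.8 CPM in CDK18KO 1 to 5, with 1 knockout library below WT 2 (log2 fold change 3.48, SE 1.06, edgeR adjusted p = 0.163). Atf5, a stress-response factor abundant in liver, differed by log2 2.13 (SE 0.67). The count at an unadjusted p was 9 without WT 1.

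Secreted plasma proteins stood higher as well. Of 24 tested apolipoproteins and carriers 23 were higher (median 2.37), of 24 coagulation and fibrinolysis genes 23 (median 2.43), and of 22 complement genes made by liver 19 (median 2.09). At an unadjusted p under 0.05 the counts higher were 14, 14 and 11, and 0, 0 and 2 were lower, the latter being C1ra and C1s1. DESeq2 called 7, 7 and 4 higher. Apob, the core protein of very low density lipoprotein, stood at 8.53, 154, 2.33, 61.1 and 118 CPM in WT 1 to 5 and 312, 2833, 170.2, 1306 and 306 CPM in CDK18KO 1 to 5. The lowest knockout library, CDK18KO 3, was just above WT 2, the highest WT library, so the groups did not overlap (log2 fold change 3.84, SE 1.18, edgeR adjusted p = 0.164). Mttp, which loads lipid onto that protein, stood at 13.3, 85, 16, 18.3 and 37.8 CPM in WT 1 to 5 and 33.9, 466, 59, 287 and 254 CPM in CDK18KO 1 to 5, and here WT 2 exceeded 2 knockout libraries (log2 fold change 2.68, SE 0.79, edgeR adjusted p = 0.162). The carrier Ahsg, the most abundant member of its list, stood at 53, 893, 87.9, 153 and 646 CPM in WT 1 to 5 and 561, 2612, 280.1, 2299.6 and 1453 CPM in CDK18KO 1 to 5, with WT 2 and WT 5 inside the knockout range (log2 fold change 1.98, SE 0.85, edgeR adjusted p = 0.261). Apoe differed by log2 2.47 (SE 0.81) and Rbp4, the vitamin A carrier, by log2 2.9 (SE 0.97).

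Fibrinogen is assembled from Fga, Fgb and Fgg, and all 3 genes stood higher in CDK18KO. Fga stood at 9.64, 278, 13.7, 23.3 and 91 CPM in WT 1 to 5 and 161, 1095, 243, 693 and 848 CPM in CDK18KO 1 to 5. WT 2 was above 2 knockout libraries and the other WT libraries were below all of them (log2 fold change 2.86, SE 0.9, edgeR adjusted p = 0.167). Fgb differed by log2 2.56 (SE 0.87), Fgg by log2 2.67 (SE 0.9), F13b, a subunit of the clot-crosslinking factor XIII, by log2 3.27 (SE 1.04), and Serpinc1, which encodes antithrombin, by log2 2.51 (SE 0.88). Mbl2, a mannose-binding lectin that starts complement on microbial sugars, differed by log2 4.49 (SE 1.31), and C3, the central complement protein, by log2 2.55 (SE 0.87). These counts leaned on single libraries. The apolipoprotein count was 7 without WT 1, WT 3, WT 4 or CDK18KO 2, 8 without WT 5 and 9 without CDK18KO 4. The coagulation count was 5 without CDK18KO 2, 8 without any of WT 1, WT 3, WT 4 and WT 5, and 22 without WT 2. The complement count was 5 without CDK18KO 2 and 7 without any of WT 1, WT 3, WT 4 and WT 5. The complement median was 3.65 without WT 2 and 1.08 without CDK18KO 2, and the apolipoprotein and coagulation medians were 3.64 and 3.96 without WT 2.

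**Figure D2:**
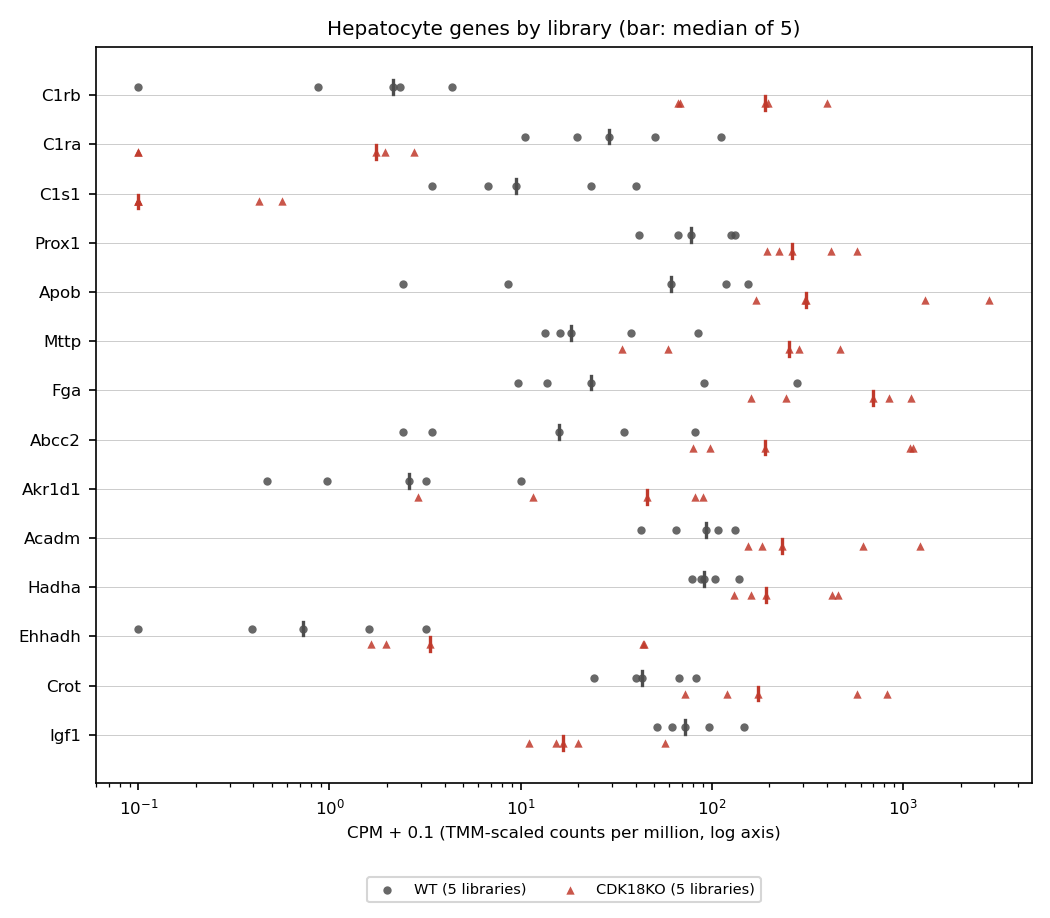
CPM + 0.1 on a log axis (horizontal) of 14 liver genes in each WT library (grey circles) and each CDK18KO library (red triangles), with a bar at the median of 5. C1rb, Prox1, Apob and Acadm lie higher in CDK18KO without overlap, C1ra and C1s1 lower without overlap, and for Mttp, Fga and Akr1d1 the highest WT library lies among the CDK18KO libraries.

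Bile acid synthesis and transport had the highest median of the lists, 3.37, with 22 of 22 tested genes higher, 19 of them at an unadjusted p under 0.05 and 16 by DESeq2. The count at an unadjusted p stayed between 14 (without CDK18KO 2) and 22 (without WT 2). Abcc2, the canalicular pump for conjugated bilirubin, stood at 3.34, 82, 2.33, 15.8 and 34.7 CPM in WT 1 to 5 and 97.8, 1092, 79.8, 1122 and 189 CPM in CDK18KO 1 to 5, with CDK18KO 3 just below WT 2 (log2 fold change 4.21, SE 1.17, edgeR adjusted p = 0.162). Abcb11, the bile salt export pump, stood at 0.742, 31.7, 1.16, 1.26 and 10.8 CPM in WT 1 to 5 and 17.1, 245, 31.7, 295 and 212 CPM in CDK18KO 1 to 5, with CDK18KO 1 below WT 2 and CDK18KO 3 level with it (log2 fold change 4.08, SE 1.14, edgeR adjusted p = 0.162). Akr1d1, which reduces the bile acid ring, stood at 0.371, 9.89, 0.873, 2.52 and 3.09 CPM in WT 1 to 5 and 2.8, 81.9, 11.5, 45.9 and 89.9 CPM in CDK18KO 1 to 5, with CDK18KO 1 below WT 2 and WT 5 (log2 fold change 3.68, SE 1.04, edgeR adjusted p = 0.162). Slco1b2, the basolateral uptake carrier and the most abundant member, differed by log2 3.53 (SE 1.07). Cyp7b1, of the alternative synthesis route, differed by log2 4.58 (SE 1.3), and Amacr, which flips side-chain stereochemistry, by log2 3.15 (SE 0.83).

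Drug-metabolising enzymes stood higher too. Phase II conjugation enzymes add glucuronate, sulfate, glutathione or methyl groups. Of 38 listed, 33 were tested and all 33 were higher (median 2.68), 24 at an unadjusted p under 0.05 and 16 by DESeq2. Ugt1a1, which conjugates bilirubin, stood at 0, 0.824, 0, 0 and 0.771 CPM in WT 1 to 5 and 2.17, 73.9, 3.42, 21.1 and 0.927 CPM in CDK18KO 1 to 5, without overlap, on 7 counts in WT against 223 (log2 fold change 5.74, SE 1.59, edgeR adjusted p = 0.162). As3mt, an arsenic methyltransferase, differed by log2 2.48 (SE 0.66), Gsta2 and Gsta3, glutathione transferases, by log2 4.96 (SE 1.45) and log2 3.14 (SE 1.03), and Ugt2b34 by log2 3.26 (SE 0.96). Without CDK18KO 4 the Gsta2 value was 2.58. Exons shared within the Ugt1a cluster, and near-copies among Gsta and Ugt2b genes, leave the split between members uncertain. Of 42 listed cytochrome P450 genes of families 1 to 4, 32 were tested and 26 of these were higher (median 2.8). At an unadjusted p under 0.05, 17 were higher and 1 lower.

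Among the P450 genes, Cyp2e1, the ethanol-inducible enzyme of pericentral hepatocytes and the most abundant member, stood at 4.82, 135, 10.2, 9.45 and 69.4 CPM in WT 1 to 5 and 139, 1719, 35.4, 524 and 106 CPM in CDK18KO 1 to 5, with WT 2 and WT 5 inside the knockout range (log2 fold change 3.46, SE 1.28, edgeR adjusted p = 0.204). Cyp4v3 stood at 0.742, 13.7, 2.04, 1.89 and 6.94 CPM in WT 1 to 5 and 26.4, 222, 17.4, 86.2 and 14.8 CPM in CDK18KO 1 to 5, above WT in every library, and Cyp2c68 did so too, with 36.1 CPM in WT 2 against 43.5 CPM in CDK18KO 1. Cyp2c38 differed by log2 4.96 (SE 1.38). Cyp4a12a, a male-biased enzyme of mouse liver, had 1 count in WT and 512 in CDK18KO, a ratio of 595 (106 to 23500), and CDK18KO 4 carried 159 CPM while CDK18KO 3 had 0. CDK18KO 4 was not among the libraries high in Y-linked genes, with 0.33 CPM of these. Cyp1b1, which is expressed in mesenchymal cells rather than hepatocytes, was the exception, at 6.67, 3.16, 3.78, 17 and 30.9 CPM in WT 1 to 5 and 2.17, 0, 0.932, 0 and 0.463 CPM in CDK18KO 1 to 5 and below WT in every library (log2 fold change -3.89, SE 1.11, edgeR adjusted p = 0.162). Without CDK18KO 2 the count of phase II genes was 12, the P450 count 6 and the P450 median 1.02. The P450 count was 11 without WT 1, WT 3 or WT 4.

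Fatty acid oxidation and ketone body genes were higher in 31 of 31 tested genes (median 1.58), 27 at an unadjusted p under 0.05 and 12 by DESeq2. Acadm, the medium-chain acyl-CoA dehydrogenase, stood at 64.5, 93.4, 42.5, 108 and 132 CPM in WT 1 to 5 and 182, 1234, 154, 616 and 234 CPM in CDK18KO 1 to 5. CDK18KO 3, the lowest of its group, was above WT 5, the highest WT library (log2 fold change 2.46, SE 0.64, edgeR adjusted p = 0.162). Hadha, a subunit of the mitochondrial trifunctional protein, stood at 103, 138, 78.6, 87.3 and 91 CPM in WT 1 to 5 and 131, 457, 159.9, 426 and 193 CPM in CDK18KO 1 to 5, overlapping only between CDK18KO 1 and WT 2 (log2 fold change 1.45, SE 0.42, edgeR adjusted p = 0.162). Ehhadh, the peroxisomal bifunctional enzyme and a classical PPARα target, stood at 0, 1.51, 0.291, 0.63 and 3.09 CPM in WT 1 to 5 and 1.86, 43.6, 1.55, 43.9 and 3.24 CPM in CDK18KO 1 to 5, with WT 5 among the knockout libraries (log2 fold change 4.19, SE 1.24, edgeR adjusted p = 0.162). The peroxisomal thiolase Acaa1b, a near-copy of Acaa1a, differed by log2 4.58 (SE 1.35). All 28 tested peroxisome genes were higher (median 1.26), 18 at an unadjusted p under 0.05 and 10 by DESeq2. Crot, which exports chain-shortened acyl groups from peroxisomes, stood at 24.1, 67.6, 39.9, 43.2 and 82.5 CPM in WT 1 to 5 and 121, 827, 72.7, 573 and 174 CPM in CDK18KO 1 to 5, with only CDK18KO 3 inside the WT range (log2 fold change 2.78, SE 0.66, edgeR adjusted p = 0.161). Hacl1, of phytanic acid breakdown, differed by log2 3.29 (SE 0.81), the fatty acid importer Abcd3 by log2 1.78 (SE 0.49) and the sterol carrier Scp2 by log2 2.67 (SE 0.75). Without CDK18KO 2 the oxidation count was 16 and the peroxisome count 10, as the latter was without WT 1.

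Biosynthesis and nitrogen metabolism leaned the same way. Cholesterol and fatty acid synthesis genes were higher in 34 of 34 (median 1.23), with 14 at an unadjusted p under 0.05. Hsd17b7, of the late sterol pathway, stood at 31.9, 56.3, 27.4, 45.1 and 38.6 CPM in WT 1 to 5 and 68.3, 310.0, 47.5, 275 and 94.1 CPM in CDK18KO 1 to 5, with CDK18KO 3 inside the WT range (log2 fold change 1.99, SE 0.58, edgeR adjusted p = 0.162). Dgat2, which closes triglyceride synthesis, differed by log2 2.48 (SE 0.75), the desaturase Scd1 by log2 3.26 (SE 1.0) and Hmgcs1, the most abundant member, by log2 1.64 (SE 0.56). Urea cycle and ammonia genes were higher in 13 of 13 (median 1.83, 8 at an unadjusted p under 0.05). Nags, which makes the activator of the cycle's entry enzyme, stood at 0.371, 11.5, 0.291, 0.315 and 6.17 CPM in WT 1 to 5 and 2.8, 79.2, 5.28, 61.4 and 56.1 CPM in CDK18KO 1 to 5. CDK18KO 1 and CDK18KO 3 lay under WT 2 and WT 5, and the other 3 knockout libraries lay far above (log2 fold change 3.4, SE 1.14, edgeR adjusted p = 0.176). Glud1, glutamate dehydrogenase, differed by log2 1.76 (SE 0.54) and the aspartate carrier Slc25a13 by log2 1.83 (SE 0.59).

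Amino acid catabolism was higher in 32 of 33 genes (median 1.78), with 17 at an unadjusted p under 0.05. Prodh, which opens proline breakdown, was the member without overlap, at 12.2, 12.8, 11.4, 4.1 and 6.17 CPM in WT 1 to 5 and 14.3, 73.9, 14.3, 29.4 and 18.5 CPM in CDK18KO 1 to 5 (log2 fold change 1.66, SE 0.58, edgeR adjusted p = 0.185). Its lowest knockout values, in CDK18KO 1 and CDK18KO 3, lay only just above the highest WT value. Amt of the glycine cleavage system differed by log2 1.89 (SE 0.53), the cysteine-making enzyme Cth by log2 2.09 (SE 0.58), Amdhd1 of histidine breakdown by log2 3.56 (SE 1.09), Hgd of tyrosine breakdown by log2 3.36 (SE 1.17) and Mat1a, the liver S-adenosylmethionine synthetase, by log2 2.71 (SE 1.04). Glucose handling did not share one direction, with 17 of 32 higher, 11 higher and 3 lower at an unadjusted p under 0.05, and a median near 0 (0.116) that turned negative with upper-quartile scaling or without WT 4, CDK18KO 4 or CDK18KO 5. The lower ones, Hk1, Pfkfb3 and Slc2a3, encode a hexokinase, a regulator of glycolysis and a transporter found mostly outside adult hepatocytes (log2 fold change -1.56, SE 0.7; log2 fold change -0.82, SE 0.35; log2 fold change -1.91, SE 0.86). Among the members higher at an unadjusted p under 0.05 were the transporter Slc2a2 (log2 fold change 2.99, SE 1.03), pyruvate carboxylase Pcx (log2 fold change 2.65, SE 0.88) and glycogen phosphorylase Pygl (log2 fold change 2.27, SE 0.8). With 1 library left out, the counts went down to 7 for cholesterol and fatty acids, 5 for urea (median 1.19) and 7 for amino acids without CDK18KO 2. The first was 9 without WT 1 or CDK18KO 5, the amino acid count was 10 without WT 1, WT 3 or WT 4, and the glucose count was 6 without WT 1, WT 3, WT 4, CDK18KO 2 or CDK18KO 4 and 7 without WT 5. Amino acid genes had a median of 2.82 without WT 2.

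These hepatocyte counts also depended on Y-linked expression. With it as a covariate, the genes higher at an unadjusted p under 0.05 were 7 transcription factors, 6 apolipoproteins and carriers, 4 coagulation, 6 complement, 13 bile acid, 6 P450, 10 phase II, 9 fatty acid oxidation, 8 peroxisome, 4 cholesterol and fatty acid, 2 urea, 4 amino acid and 4 glucose genes. Without the 3 libraries high in Y-linked expression they were 12, 6, 6, 2, 15, 10, 14, 23, 13, 7, 6, 8 and 4 in the same order. All 13 medians stayed positive under both settings.

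**Figure D3:**
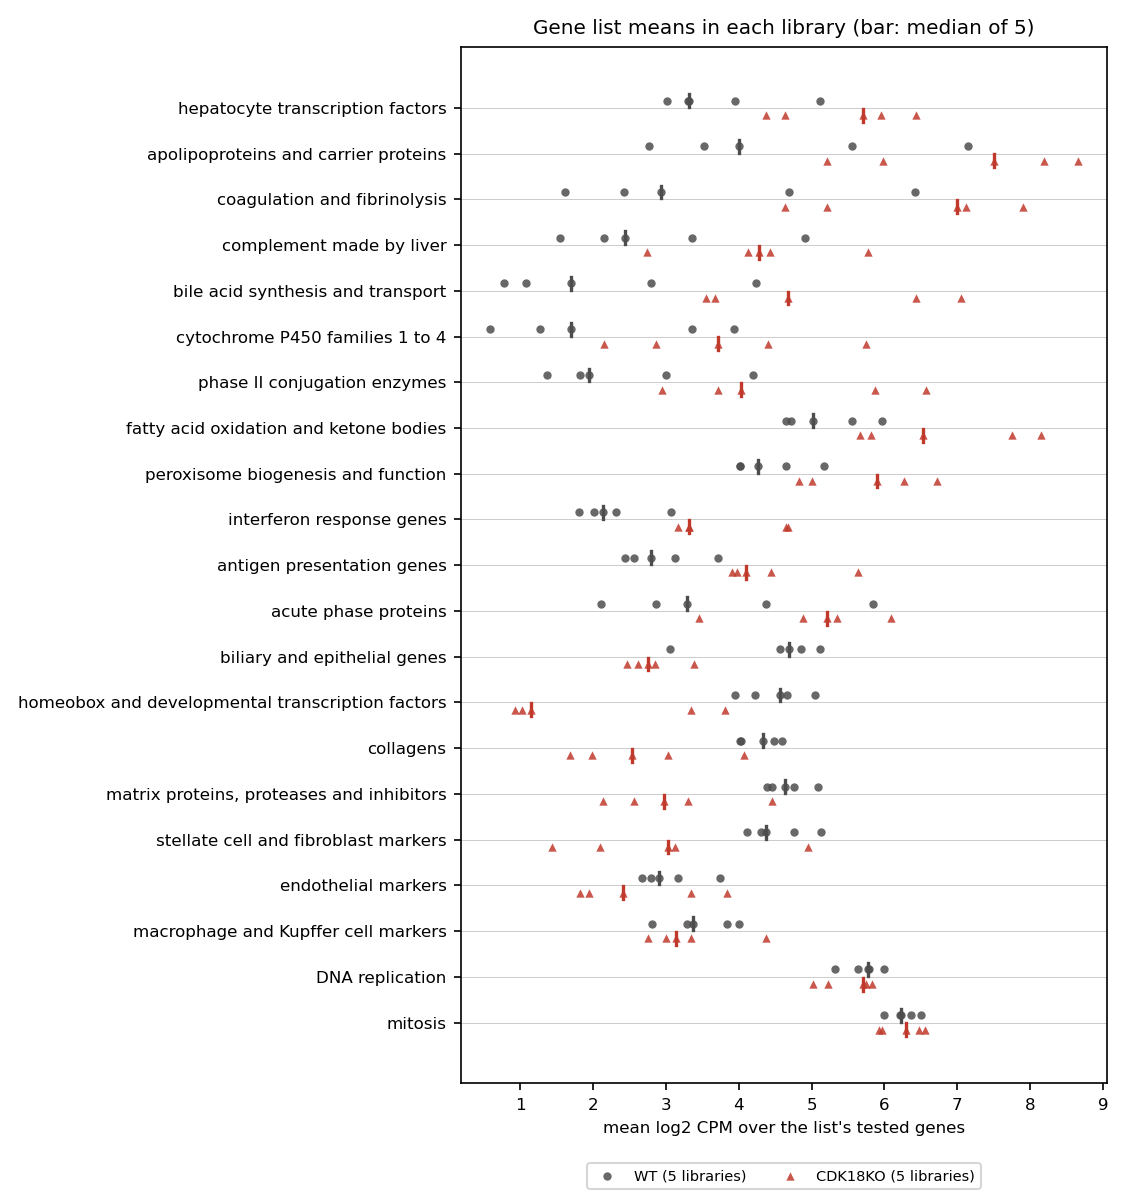
Mean log2 CPM over the tested genes of each list (horizontal) in each WT library (grey circles) and each CDK18KO library (red triangles), with a bar at the median of 5. Interferon response and antigen presentation genes are the 2 lists drawn on the higher side whose libraries do not overlap, while homeobox and developmental genes and matrix genes spread further among CDK18KO libraries than among WT.

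Cells answer interferons by signalling from surface receptors, which brings transcription factors to interferon-stimulated response elements in promoters and raises antiviral effectors and the machinery that shows peptides on MHC class I. Of 47 listed interferon response genes 34 had enough counts to be tested, and all 34 were higher in CDK18KO (median 2.09). At an unadjusted p under 0.05 there were 23, with 16 by DESeq2 and 8 without overlap. Among all genes tested 11.6% were higher at that p and 1.1% lay above WT without overlap. A member with counts in CDK18KO alone could pass the filter, and one silent in every genotype could not. Mean log2 CPM of the 34 genes was 1.8, 3.07, 2.01, 2.13 and 2.32 in WT 1 to 5 and 3.32, 4.68, 3.32, 4.65 and 3.17 in CDK18KO 1 to 5. The highest WT library, WT 2, was below the lowest knockout library, CDK18KO 5. Left-out libraries moved the count at an unadjusted p to between 17 (without CDK18KO 2) and 25 (without CDK18KO 5), and the median was 1.44 without CDK18KO 2.

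Isg15, the ubiquitin-like protein joined to targets during the response, stood at 4.82, 8.38, 4.66, 2.21 and 3.09 CPM in WT 1 to 5 and 17.4, 22.9, 12.7, 47.2 and 13.9 CPM in CDK18KO 1 to 5 (log2 fold change 2.25, SE 0.56, edgeR adjusted p = 0.162). Ifi44 stood at 2.22, 0.824, 1.46, 1.26 and 3.09 CPM in WT 1 to 5 and 12.1, 16, 8.07, 8.92 and 4.63 CPM in CDK18KO 1 to 5, and Bst2 (tetherin), which holds budding viruses at the membrane, at 87.1, 87.2, 53.3, 28 and 56.3 CPM in WT 1 to 5 and 125, 441, 121, 204 and 224 CPM in CDK18KO 1 to 5. All 3 genes were above WT in every knockout library, and Ifi44 (log2 fold change 2.55, SE 0.62, edgeR adjusted p = 0.162) and Bst2 (log2 fold change 1.83, SE 0.48, edgeR adjusted p = 0.162) had the larger and the smaller difference. Xaf1, a pro-apoptotic response gene, stood at 1.85, 1.65, 1.75, 1.89 and 1.54 CPM in WT 1 to 5 and 11.5, 11.2, 4.97, 12.9 and 1.39 CPM in CDK18KO 1 to 5. The WT libraries had an SD of 0.144 CPM, and CDK18KO 5 lay below them while the other 4 knockout libraries were higher (log2 fold change 2.24, SE 0.51, edgeR adjusted p = 0.14). Irgm2, an immunity-related GTPase, overlapped only between CDK18KO 1 and WT 2 (log2 fold change 2.59, SE 0.66, edgeR adjusted p = 0.162), at 4.04 CPM against 5.22 CPM. The most abundant member, Iigp1, another such GTPase, differed by log2 3.37 (SE 1.27), with CDK18KO 5 below 3 WT libraries.

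The promoters of interferon genes are shown because many carry the response element itself. Sequence upstream of the RefSeq start site (250 bases, GRCm38.p6) was held for 27 of the 34 tested genes and searched on both strands for GAAANNGAAA, the core of the interferon-stimulated response element. It was found in 15 of the 27 (55.6%), against 311 of 9940 tested genes with a promoter (3.13%). The list was drawn up from known interferon response genes, so this share describes the list and not the difference between the genotypes. Of the 8 genes without overlap a promoter was held for 7, and 4 of these 7 hold GAAANNGAAA. Their sequences follow 5′ to 3′ on the gene's strand, with the matching bases in capitals.
Isg15 (chr4:156200819-156201068, minus strand): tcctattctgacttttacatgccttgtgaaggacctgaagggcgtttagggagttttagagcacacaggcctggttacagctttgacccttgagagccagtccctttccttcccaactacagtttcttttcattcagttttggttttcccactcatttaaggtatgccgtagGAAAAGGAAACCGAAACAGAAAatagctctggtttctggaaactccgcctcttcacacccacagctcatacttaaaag
Bst2 (chr8:71537473-71537722, minus strand): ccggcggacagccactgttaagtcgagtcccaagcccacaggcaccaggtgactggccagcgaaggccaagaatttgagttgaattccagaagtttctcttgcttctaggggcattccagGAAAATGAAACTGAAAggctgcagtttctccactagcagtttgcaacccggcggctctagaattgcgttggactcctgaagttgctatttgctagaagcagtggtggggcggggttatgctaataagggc
Trim30a (chr7:104465194-104465443, minus strand): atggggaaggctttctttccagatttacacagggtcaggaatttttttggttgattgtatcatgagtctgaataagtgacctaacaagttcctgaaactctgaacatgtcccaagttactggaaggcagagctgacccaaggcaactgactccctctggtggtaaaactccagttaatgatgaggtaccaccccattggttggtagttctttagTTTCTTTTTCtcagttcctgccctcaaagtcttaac
Irgm1 (chr11:48871421-48871670, minus strand): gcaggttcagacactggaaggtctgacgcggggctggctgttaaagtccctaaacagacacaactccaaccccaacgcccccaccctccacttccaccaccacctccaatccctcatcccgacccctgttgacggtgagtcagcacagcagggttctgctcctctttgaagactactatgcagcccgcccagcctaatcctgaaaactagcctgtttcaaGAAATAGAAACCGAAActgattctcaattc

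In Isg15 and Irgm1 the matches overlap into 1 stretch that starts at -78 and -30 from the start site, in Bst2 the stretch starts at -130, and in Trim30a a single match lies on the other strand at -36. Genes holding the element had a median log2 fold change of 1.9 (15 genes, 4 without overlap) and genes lacking it 1.84 (12 genes, 3 without overlap), a difference that was not tested. A match is a run of letters and not a measured binding site. Among antigen presentation genes with a promoter, 3 of 18 (16.7%) held GAAANNGAAA. A second pattern, TTCCNGGAA, was also searched. It was held by 4 of 27 interferon response genes (14.8%), 0 of 18 antigen presentation genes and 120 of 9940 tested genes (1.21%).

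Of 27 listed antigen presentation genes 22 were tested, and all 22 were higher (median 1.66). At an unadjusted p under 0.05 there were 18, beside 11.6% of all genes tested, and DESeq2 called 6, beside 3.56%. Mean log2 CPM was 2.44, 3.72, 3.13, 2.56 and 2.8 in WT 1 to 5 and 4.1, 5.63, 3.91, 4.44 and 3.97 in CDK18KO 1 to 5, again with no overlap, WT 2 being the highest WT library and CDK18KO 3 the lowest knockout library. Psme1, a proteasome activator subunit, stood at 39.7, 54.5, 36.4, 29.6 and 31.6 CPM in WT 1 to 5 and 62.4, 179.7, 68, 208 and 104 CPM in CDK18KO 1 to 5 and was the member without overlap (log2 fold change 1.69, SE 0.4, edgeR adjusted p = 0.152). Psmb9, an immunoproteasome subunit, stood at 0.742, 10.0, 5.53, 1.58 and 0.771 CPM in WT 1 to 5 and 7.14, 48.9, 23.6, 14.5 and 39.9 CPM in CDK18KO 1 to 5, with CDK18KO 1 below WT 2 (log2 fold change 2.73, SE 0.8, edgeR adjusted p = 0.162). Tap2, a subunit of the peptide transporter, stood at 3.34, 7.69, 2.62, 1.58 and 6.94 CPM in WT 1 to 5 and 13.7, 51.1, 17.7, 7.6 and 19.5 CPM in CDK18KO 1 to 5, where CDK18KO 4 came just under WT 2 (log2 fold change 2.29, SE 0.61, edgeR adjusted p = 0.162). Erap1, which trims peptides, differed by log2 2.1 (SE 0.55), Tapbp (tapasin), which loads them, by log2 2.57 (SE 0.82), and B2m, the light chain of MHC class I and the most abundant member, by log2 1.53 (SE 0.55). The count at an unadjusted p was 11 without WT 1, 8 without CDK18KO 2, 9 without the libraries high in Y-linked expression and 10 with the Y-linked covariate, under which the interferon count was 14.

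**Figure D4:**
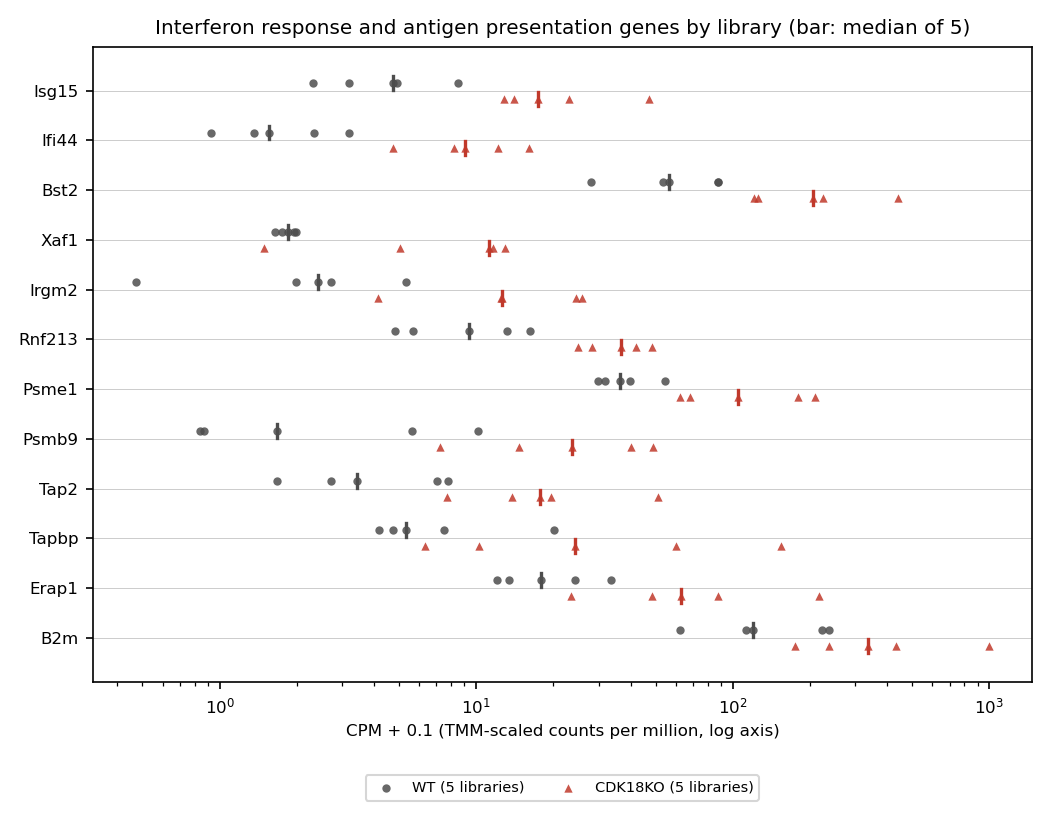
CPM + 0.1 on a log axis (horizontal) of 12 interferon response and antigen presentation genes in each WT library (grey circles) and each CDK18KO library (red triangles), with a bar at the median of 5. Isg15, Ifi44, Bst2, Rnf213 and Psme1 lie higher in CDK18KO without overlap, and in Xaf1 a single CDK18KO library lies below the tightly grouped WT libraries.

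Immune cell markers were measured as well. Of 24 tested macrophage and Kupffer cell markers 12 were higher and 12 lower, with a median near 0 (0.0031) that changed sign with the scaling, and mean log2 CPM of 2.81 to 4.0 in WT and 2.76 to 4.37 in CDK18KO. Ccr2, a monocyte chemokine receptor, stood at 1.11, 5.77, 4.37, 4.41 and 1.54 CPM in WT 1 to 5 and 35.7, 6.38, 4.04, 4.95 and 4.63 CPM in CDK18KO 1 to 5, high in CDK18KO 1 alone (log2 fold change 1.64, SE 0.66, edgeR adjusted p = 0.228). Lymphocyte markers were too scarce to describe, as 2 of 22 for T and NK cells and 4 of 16 for the B lineage passed the filter. Neutrophil markers were lower in 9 of 11 (median -0.997, or -1.53 to -0.628 with 1 library left out). Mmp9, described with the matrix genes, is also on this list and was its 1 member without overlap. S100a8 differed by log2 -1.6 (SE 0.76) and S100a9 by log2 -1.7 (SE 0.8). Without WT 5 these were -0.79 and -1.04, and S100a8 was -2.43 without CDK18KO 5. Chemokines and their receptors were mixed, 7 of 16 higher (median -0.151). Acute phase proteins, which hepatocytes make under interleukin-6, were higher in 20 of 25 (median 1.49), but 5 passed at an unadjusted p under 0.05. That count was 15 (median 2.76) without WT 2, 9 without CDK18KO 3, 3 without WT 5 or CDK18KO 2 (median 0.882), 2 without WT 1, WT 3 or WT 4, and 1 without the libraries high in Y-linked expression. Saa3 differed by log2 2.88 (SE 0.83), Saa4 by log2 3.06 (SE 1.12), Cp, the copper carrier ceruloplasmin, by log2 2.67 (SE 1.07), the heme scavenger Hpx by log2 1.96 (SE 0.9) and Saa2, a near-copy of Saa1, by log2 1.96 (SE 0.91).

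Most tested epithelial genes of bile ducts and hepatoblasts stood lower. Of 28 listed biliary and epithelial genes 22 were tested, 16 lower and 6 higher (median -1.23). At an unadjusted p under 0.05, 8 were lower and 0 higher. DESeq2 called 6, and 4 were without overlap (Krt19, Epcam, Esrp1 and the epithelial factor Grhl2). The list means overlapped, with WT 4 at a mean log2 CPM of 3.05 and CDK18KO 1 at 3.39. Krt19, a bile duct keratin, stood at 29.7, 8.24, 17.2, 0.945 and 9.26 CPM in WT 1 to 5 and 0.621, 0, 0, 0.33 and 0.463 CPM in CDK18KO 1 to 5 (log2 fold change -5.29, SE 1.02, edgeR adjusted p = 0.102). WT 4 was far below the other WT libraries and still above every knockout library. Epcam, an adhesion molecule of hepatoblasts and ducts, stood at 128, 35.9, 125, 61.4 and 86.4 CPM in WT 1 to 5 and 6.21, 0, 4.04, 1.98 and 5.1 CPM in CDK18KO 1 to 5 (log2 fold change -4.61, SE 1.0, edgeR adjusted p = 0.13). Esrp1, which steers epithelial splicing, stood at 31.9, 8.24, 17.8, 4.73 and 20.1 CPM in WT 1 to 5 and 0.621, 0, 0.621, 0 and 0.463 CPM in CDK18KO 1 to 5 (log2 fold change -5.36, SE 1.13, edgeR adjusted p = 0.122). Every knockout library had under 1 CPM of Esrp1 and at most 6.21 CPM of Epcam. Krt7 differed by log2 -4.76 (SE 1.1) and the tight junction gene Cldn7 by log2 -3.82 (SE 1.24), and in these WT 4 lay within the knockout range. Aqp5, a water channel of secretory epithelia and not on the list, stood at 4.08, 11.4, 7.86, 1.26 and 6.17 CPM in WT 1 to 5 and 0.932, 0, 0.311, 0 and 0.463 CPM in CDK18KO 1 to 5, without overlap (log2 fold change -3.96, SE 0.79, edgeR adjusted p = 0.115). The list's count was 11 at most, without CDK18KO 1, where its median was -1.98, and the median was -1.95 without the 3 libraries high in Y-linked expression.

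Homeobox and other developmental transcription factors pattern the embryo and are mostly silent in adult liver. Of 92 listed, 41 had enough counts to be tested, and 40 of these were lower in CDK18KO (median -1.54), 15 at an unadjusted p under 0.05, 8 by DESeq2 and 7 without overlap. A member with counts in WT alone could pass the filter and one silent in both could not. Dlx2, a homeobox gene of forebrain and jaw, stood at 6.3, 4.81, 6.4, 10.4 and 10.0 CPM in WT 1 to 5 and 0.621, 0, 0.311, 0 and 0 CPM in CDK18KO 1 to 5, on 3 counts in the knockout group against 120, a ratio of 34.4 (11.5 to 169). Tfap2c, a trophoblast and neural crest factor, stood at 31.5, 9.48, 30.0, 30.6 and 67.1 CPM in WT 1 to 5 and 2.8, 0.532, 1.24, 0 and 0 CPM in CDK18KO 1 to 5 (log2 fold change -5.05, SE 0.96, edgeR adjusted p = 0.102). Tbx18, a T-box factor, stood at 4.08, 2.75, 4.66, 18.6 and 7.71 CPM in WT 1 to 5 and 0, 0, 0.932, 0.33 and 0 CPM in CDK18KO 1 to 5 (log2 fold change -4.54, SE 1.02, edgeR adjusted p = 0.137). All 3 were below WT in every knockout library, and CDK18KO 1 and CDK18KO 3 kept the most Tfap2c.

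Twist1, a driver of mesenchymal change, stood at 27.4, 1.37, 10.2, 203 and 149.7 CPM in WT 1 to 5 and 0.932, 0, 2.17, 0 and 0 CPM in CDK18KO 1 to 5, and its WT values ran from WT 2 within the knockout range to WT 4 far above it (log2 fold change -6.73, SE 1.35, edgeR adjusted p = 0.115). Pax9 had 2 counts in CDK18KO against 137, a ratio of 58.9 (16 to 492), but WT 5 had 0 as well. Mean log2 CPM of the list was 4.57, 3.95, 4.22, 4.66 and 5.04 in WT 1 to 5 and 3.81, 0.93, 3.34, 1.02 and 1.15 in CDK18KO 1 to 5. The knockout libraries split, with CDK18KO 1 and CDK18KO 3 just under the WT libraries and the other 3 far below. CDK18KO 1 and CDK18KO 3 were also the lowest of their group in the means of most hepatocyte lists. These were the transcription factor, apolipoprotein, coagulation, urea, amino acid, bile acid, phase II, fatty acid oxidation, cholesterol and peroxisome lists. In the complement, P450 and glucose lists they were not the lowest pair. Runx3, a developmental and immune transcription factor outside the list, stood at 202, 40.8, 60.3, 105 and 155 CPM in WT 1 to 5 and 17.7, 1.06, 34.8, 1.32 and 2.78 CPM in CDK18KO 1 to 5 with the same split (log2 fold change -3.26, SE 0.93, edgeR adjusted p = 0.162). The median was -2.33 without CDK18KO 1, and with only WT and CDK18KO in the fit 6 genes passed at an unadjusted p.

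Oncofetal genes did not share one direction, with 9 of 24 higher and 15 lower (median -0.564). Igf2bp2, an RNA-binding protein of fetal liver and tumours, stood at 14.8, 5.5, 6.69, 76.3 and 74.1 CPM in WT 1 to 5 and 1.86, 0.532, 3.73, 1.32 and 1.39 CPM in CDK18KO 1 to 5, without overlap (log2 fold change -4.24, SE 0.9, edgeR adjusted p = 0.122). Plagl1, an imprinted zinc finger gene, stood at 15.6, 3.98, 5.82, 24.3 and 14.7 CPM in WT 1 to 5 and 3.11, 0.532, 2.48, 0.991 and 0 CPM in CDK18KO 1 to 5, also without overlap (log2 fold change -3.06, SE 0.96, edgeR adjusted p = 0.166). H19, the imprinted fetal RNA beside Igf2, went the other way, at 141, 1575, 108, 109 and 610.2 CPM in WT 1 to 5 and 409, 3782, 2481, 4626 and 4199 CPM in CDK18KO 1 to 5. CDK18KO 1 lay within the WT range for H19 and the other 4 knockout libraries above it (log2 fold change 2.61, SE 0.91, edgeR adjusted p = 0.185). Hmga2 differed by log2 -2.02 (SE 0.77). Igf2bp1 differed by log2 -2.62 (SE 1.43), a value that was -0.25 without WT 4 and -5.12 without CDK18KO 5. Igf2bp2, Plagl1 and Hmga2 were the members lower at an unadjusted p under 0.05 and H19 the higher one. The count lower was 8 without CDK18KO 5, with a median of -1.02, and 5 without CDK18KO 1, and the median was -0.172 without WT 2, -0.192 without WT 4, -0.318 without WT 3 and -0.259 without CDK18KO 4.

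Pathway targets showed lower medians with few genes past the threshold of an unadjusted p under 0.05. Among all genes tested 11.6% were higher and 5.31% lower at it. Wnt feedback and target genes were lower in 21 of 25 (median -0.582), with 1 higher and 1 lower at an unadjusted p under 0.05. Glul, glutamine synthetase and a β-catenin target of pericentral hepatocytes, was the higher one, at 234, 803, 220.1, 409 and 649.6 CPM in WT 1 to 5 and 929.7, 5340.2, 361, 1697 and 371 CPM in CDK18KO 1 to 5 (log2 fold change 1.91, SE 0.77, edgeR adjusted p = 0.23). CDK18KO 2 was far above every other library, and CDK18KO 3 and CDK18KO 5 lay within the WT range. Nfatc4 was the lower one (log2 fold change -1.96, SE 0.89), and Lect2, a secreted hepatocyte target, differed by log2 2.62 (SE 1.24). Nkd2, a feedback inhibitor of Wnt signalling outside the list, stood at 64.5, 109, 146, 131 and 98 CPM in WT 1 to 5 and 26.1, 2.66, 17.4, 1.98 and 3.71 CPM in CDK18KO 1 to 5, without overlap (log2 fold change -3.38, SE 0.78, edgeR adjusted p = 0.148). YAP and TEAD targets were lower in 21 of 22 (median -0.794), with 2 at an unadjusted p under 0.05. Ccn2 stood at 59, 44.2, 40.8, 40.6 and 109.5 CPM in WT 1 to 5 and 26.4, 12.2, 8.7, 0.991 and 8.34 CPM in CDK18KO 1 to 5, without overlap (log2 fold change -2.36, SE 0.59, edgeR adjusted p = 0.162), and Ccn1 differed by log2 -1.31 (SE 0.49).

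TGFβ and BMP pathway genes were lower in 33 of 39 (median -0.802), with 2 higher and 2 lower at an unadjusted p under 0.05. The count lower was near the share of all genes tested, 5.31%. The higher ones, Inhbc (log2 fold change 3.03, SE 1.04) and Inhbe (log2 fold change 2.23, SE 0.91), encode activin subunits made by hepatocytes. The lower ones were Smad5 (log2 fold change -0.61, SE 0.25) and the inhibitor Smad6 (log2 fold change -1.63, SE 0.71), and Bmp7 differed by log2 -1.88 (SE 0.95). Without CDK18KO 1 the counts lower were 8 for Wnt (median -0.909), 6 for YAP (6 also without CDK18KO 3) and 18 for TGFβ (median -1.34), and without the libraries high in Y-linked expression they were 4, 4 and 12. Leaving out another single library gave 0 to 2 for Wnt, 1 to 4 for YAP and 0 to 2 for TGFβ. Growth factors and receptors were mixed, 16 of 35 higher, with 6 higher and 4 lower at an unadjusted p under 0.05. Igf1, the growth hormone-driven insulin-like growth factor, stood at 72.7, 147, 61.7, 51.7 and 96.4 CPM in WT 1 to 5 and 56.5, 16.5, 19.9, 10.9 and 15.3 CPM in CDK18KO 1 to 5. CDK18KO 1 alone reached the WT range, between WT 4 and WT 3 (log2 fold change -1.84, SE 0.53, edgeR adjusted p = 0.162). Igf2r, which clears IGF2, stood at 129, 132, 119, 106 and 119.6 CPM in WT 1 to 5 and 184, 356, 188, 360.4 and 286 CPM in CDK18KO 1 to 5, without overlap (log2 fold change 1.18, SE 0.36, edgeR adjusted p = 0.164). Met, the hepatocyte growth factor receptor, stood at 7.05, 28.6, 10.2, 5.36 and 19.3 CPM in WT 1 to 5 and 21.4, 108, 28.9, 101 and 78.8 CPM in CDK18KO 1 to 5, with CDK18KO 1 below WT 2 (log2 fold change 2.25, SE 0.61, edgeR adjusted p = 0.162).

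Matrix and stromal genes stood lower. Of 35 listed collagen genes 25 were tested and 21 of these were lower (median -1.35), 11 at an unadjusted p under 0.05 and 6 by DESeq2. At that p 1 was higher, Col18a1 of basement membranes (log2 fold change 1.5, SE 0.67). Of 56 other matrix proteins, proteases and inhibitors listed, 46 were tested and 42 of these were lower (median -1.28). At an unadjusted p under 0.05, 22 were lower and 0 higher, with 13 by DESeq2 and 10 without overlap. Sparcl1, a secreted matrix-associated glycoprotein, stood at 86, 35, 41.3, 140.2 and 119.6 CPM in WT 1 to 5 and 25.5, 4.79, 16.1, 8.92 and 5.1 CPM in CDK18KO 1 to 5 (log2 fold change -2.78, SE 0.53, edgeR adjusted p = 0.102). Mmp9, a gelatinase, stood at 23.7, 22.4, 15.1, 7.88 and 17 CPM in WT 1 to 5 and 2.17, 0, 0, 0 and 0.927 CPM in CDK18KO 1 to 5 (log2 fold change -4.65, SE 0.89, edgeR adjusted p = 0.102). Both were below WT in every knockout library, and 3 knockout libraries had no Mmp9 count. Col6a3, of microfibrils, stood at 132, 34.6, 57.9, 56.4 and 66.3 CPM in WT 1 to 5 and 26.7, 6.38, 8.38, 2.97 and 11.1 CPM in CDK18KO 1 to 5 (log2 fold change -2.63, SE 0.56, edgeR adjusted p = 0.122), and Col12a1, a fibril-associated collagen, at 24.8, 6.18, 7.28, 15.1 and 20.1 CPM in WT 1 to 5 and 5.59, 1.06, 1.55, 3.3 and 0.927 CPM in CDK18KO 1 to 5 (log2 fold change -2.5, SE 0.57, edgeR adjusted p = 0.144). In both, CDK18KO 1 was the highest knockout library and came close to the lowest WT library.

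Col11a1 differed by log2 -2.92 (SE 0.83) and Col7a1 by log2 -3.83 (SE 1.05), without overlap, and Col6a2 by log2 -3.58 (SE 0.97), with WT 2 inside the knockout range. Col1a1, the most abundant collagen, stood at 303, 243, 181, 190.0 and 504 CPM in WT 1 to 5 and 233, 80.3, 67.1, 15.9 and 45.9 CPM in CDK18KO 1 to 5, with CDK18KO 1 among the WT libraries (log2 fold change -1.68, SE 0.6, edgeR adjusted p = 0.191). The matricellular gene Postn differed by log2 -3.49 (SE 0.85), Spon1 by log2 -3.88 (SE 0.97) and the proteoglycan Bgn by log2 -2.13 (SE 0.56), the latter 2 without overlap. The collagen count was 7 without WT 4 and 17 without CDK18KO 1, and the matrix count was 33 without CDK18KO 1, against 22 with all libraries. Medians without CDK18KO 1 were -2.24 and -2.16.

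Markers of stellate cells and fibroblasts, the liver cells that make most of this matrix, were lower in 16 of 17 (median -1.33), 7 at an unadjusted p under 0.05 and 3 without overlap. Their mean log2 CPM was 4.3, 4.38, 4.11, 4.76 and 5.13 in WT 1 to 5 and 4.95, 3.12, 3.03, 1.44 and 2.09 in CDK18KO 1 to 5. CDK18KO 1 was within the WT range and the other 4 knockout libraries were below it. Thy1, a fibroblast surface protein, stood at 15.6, 4.53, 9.02, 7.56 and 5.4 CPM in WT 1 to 5 and 1.24, 1.06, 0.932, 0.991 and 1.85 CPM in CDK18KO 1 to 5 (log2 fold change -2.76, SE 0.45, edgeR adjusted p = 0.102). Pdgfrb, the platelet-derived growth factor receptor of stellate cells, stood at 38.2, 8.93, 15.7, 28.4 and 22.4 CPM in WT 1 to 5 and 6.83, 3.19, 6.21, 0 and 1.39 CPM in CDK18KO 1 to 5 (log2 fold change -2.65, SE 0.7, edgeR adjusted p = 0.162), with 0 in CDK18KO 4. Pdgfra differed by log2 -2.44 (SE 0.67), without overlap, and Dpt by log2 -2.91 (SE 0.9). Without CDK18KO 1 the count was 14 and the median -2.77, and without the 3 libraries high in Y-linked expression the median was -2.76. The part of cell composition in the matrix values was not tested.

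Endothelial and erythroid markers gave no such pattern, while neutrophil markers leaned lower as given above. Of 19 tested endothelial markers 10 were higher, with a median near 0 (0.0434) that changed sign with the scaling, with Esam higher (log2 fold change 2.19, SE 0.74) and Vwf lower (log2 fold change -2.87, SE 1.02) at an unadjusted p under 0.05, and the median was -0.747 without CDK18KO 2. Erythroid markers were split 6 to 6 (median 0.0178, changing sign with the scaling, or -0.683 without CDK18KO 5), with Hba-a1 at log2 -1.47 (SE 0.48).

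**Figure D5:**
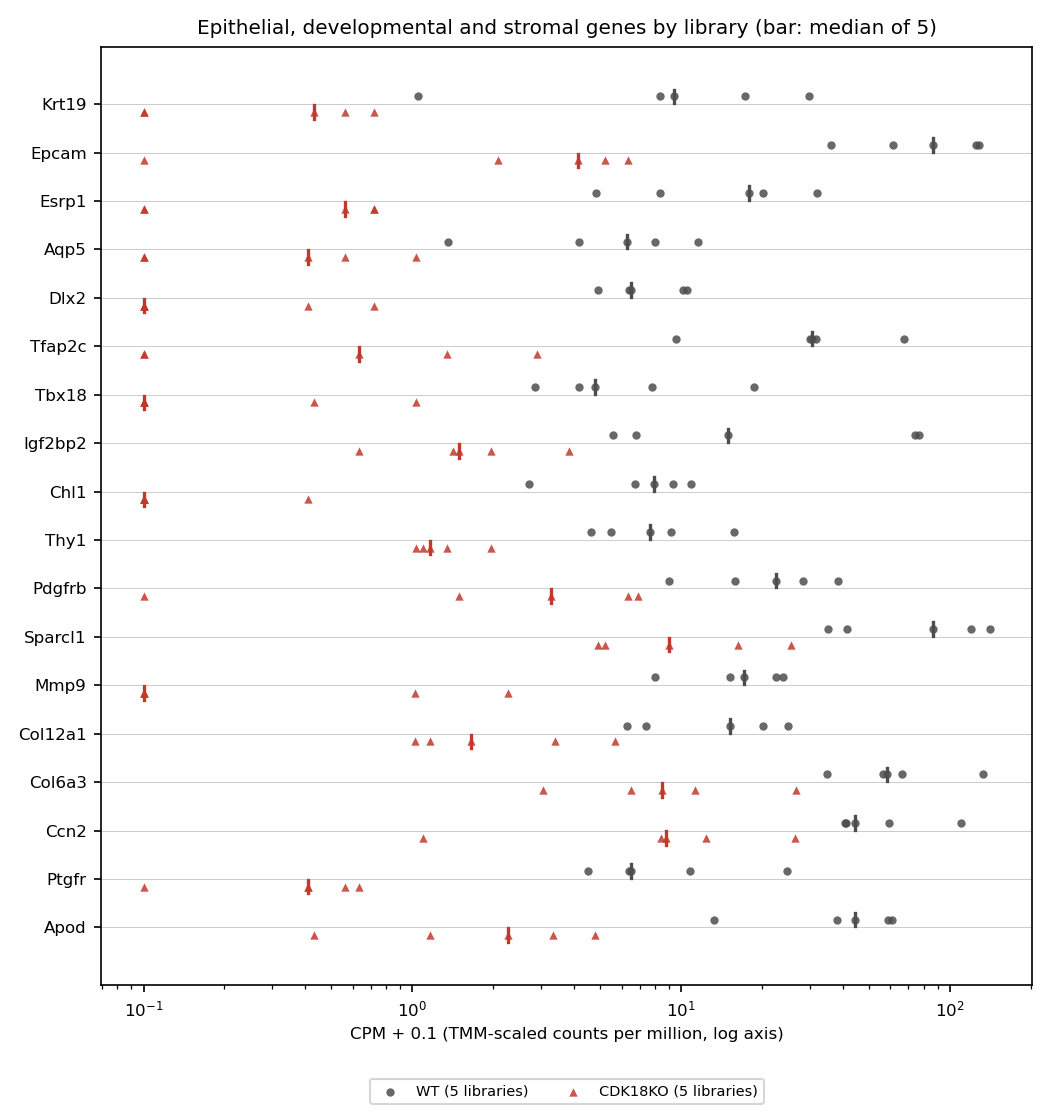
CPM + 0.1 on a log axis (horizontal) of 18 epithelial, developmental and stromal genes in each WT library (grey circles) and each CDK18KO library (red triangles), with a bar at the median of 5. All 18 lie lower in CDK18KO without overlap, and points at 0.1 are libraries with no count.

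Genes that replicate, repair and segregate DNA, and nuclear pore genes, had list medians from -0.22 to 0.063. The median of all genes was -0.0097, with 49.4% higher. The DNA replication, checkpoint and nuclear pore lists leaned lower. The median was -0.22 for 46 DNA replication genes (32 lower), -0.16 for 25 replication checkpoint genes (17 lower), 0.063, with a sign that changed with the scaling, for 34 homologous recombination and Fanconi genes (18 higher), -0.0352 for 53 mitosis genes (28 lower) and -0.14 for 30 nuclear pore genes (21 lower). Prim2, the large primase subunit that starts DNA chains, stood at 21.5, 21.4, 29.4, 22.7 and 23.1 CPM in WT 1 to 5 and 8.7, 4.25, 8.38, 7.6 and 8.8 CPM in CDK18KO 1 to 5. Every knockout library lay below every WT library (log2 fold change -1.64, SE 0.34, edgeR adjusted p = 0.122), with WT 3 above the other WT libraries and CDK18KO 2 below the other knockout libraries. Brip1, the helicase partner of BRCA1, stood at 33.7, 32.8, 23, 27.4 and 19.3 CPM in WT 1 to 5 and 40.4, 46.8, 41, 55.5 and 52.4 CPM in CDK18KO 1 to 5, above WT in every library (log2 fold change 0.79, SE 0.26, edgeR adjusted p = 0.171). The kinetochore gene Spc25 differed by log2 0.91 (SE 0.26). Of nuclear pore genes, Pom121 differed by log2 -0.63 (SE 0.27) and Nup54, which did not pass at an unadjusted p under 0.05, by log2 0.44 (SE 0.35).

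Among abundant genes outside these lists, several did not overlap. Arl6ip1, a protein that shapes the endoplasmic reticulum, stood at 211, 228, 222, 246 and 193 CPM in WT 1 to 5 and 329.9, 656, 312, 637 and 455 CPM in CDK18KO 1 to 5 (log2 fold change 1.12, SE 0.25, edgeR adjusted p = 0.137). Creg1, a lysosomal glycoprotein, stood at 107, 164, 78.3, 74 and 139 CPM in WT 1 to 5 and 204, 1264, 189, 1414 and 209 CPM in CDK18KO 1 to 5 (log2 fold change 2.54, SE 0.65, edgeR adjusted p = 0.162). The knockout values of Creg1 formed a high pair, CDK18KO 2 and CDK18KO 4, and 3 lower libraries, all above WT. Rps2, a small ribosomal subunit protein whose reads may be shared with processed copies, stood at 209, 208, 274, 152 and 113 CPM in WT 1 to 5 and 458, 338, 349, 287 and 310.0 CPM in CDK18KO 1 to 5 (log2 fold change 0.86, SE 0.26, edgeR adjusted p = 0.163). Its highest WT value, in WT 3, was just under the lowest knockout value, in CDK18KO 4. Eny2, Tars1, Hdlbp, Rab14, Tbca and Selenos were likewise above WT in every library, by log2 0.65 (SE 0.24), log2 0.86 (SE 0.25), log2 0.76 (SE 0.3), log2 0.63 (SE 0.21), log2 0.5 (SE 0.22) and log2 0.94 (SE 0.3). They serve chromatin modification, threonyl-tRNA charging, lipoprotein RNA binding, vesicle traffic, tubulin folding and protein quality control, in that order.

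Abundant genes below WT in every knockout library included regulators of chromatin and RNA. Chd3, a nucleosome remodeller of the NuRD complex, stood at 562, 227, 215, 348 and 386 CPM in WT 1 to 5 and 154, 12.8, 123, 86.2 and 76 CPM in CDK18KO 1 to 5 (log2 fold change -1.94, SE 0.58, edgeR adjusted p = 0.162). CDK18KO 2 was far under the other knockout libraries. Tsn, a nucleic acid-binding protein, stood at 613, 535, 567, 521 and 484 CPM in WT 1 to 5 and 470.0, 443, 386, 362 and 421 CPM in CDK18KO 1 to 5 (log2 fold change -0.39, SE 0.18, edgeR adjusted p = 0.287), and Zmat3, an RNA-binding p53 target, at 95.3, 95.3, 186, 297 and 119 CPM in WT 1 to 5 and 90.4, 38.8, 93.2, 70.4 and 56.5 CPM in CDK18KO 1 to 5 (log2 fold change -1.18, SE 0.39, edgeR adjusted p = 0.171). For both, the nearest values of the genotypes were close, and neither passed DESeq2 (adjusted p = 0.16 and 0.0579). Msl1, Vrk1, Arih2, Dync1li2, Cirbp, Fat1 and Hs2st1 differed by log2 -0.41 (SE 0.19), log2 -0.89 (SE 0.31), log2 -0.26 (SE 0.18), log2 -0.67 (SE 0.24), log2 -1.14 (SE 0.38), log2 -0.81 (SE 0.31) and log2 -0.57 (SE 0.25). All 7 were without overlap, and Arih2 was not among the genes at an unadjusted p under 0.05.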

How the data were processed

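The deposited table holds raw read counts for 77981 gene symbols in 14 libraries, and 0 columns of values were left unused. Per the labels' protocols, 300.0 ng of RNA with a mean integrity number of 8.3 (7.5 to 8.8) went into stranded, poly(A)-primed 3′ libraries with 6-base molecular identifiers, read as single 151-base reads. The authors' programs, per the submitters' processing notes, include STAR 2.7.11a and HTSeq 1.99.2, besides UMI-tools 1.1.2, FastQC, and DESeq2 1.32.0. The builds mm10 and GRCh38 stand there without a role. The annotation counted and any collapse of identifiers are not stated, and intervals cover counting error only.

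Counts were tested with edgeR 4.0.16 (R 4.3.3): TMM factors, filtering by group, quasi-likelihood F test, all 14 libraries, two-sided, Benjamini-Hochberg adjustment over 13997 genes, called under 0.05. SE is the size of the log2 fold change over the square root of F. The common BCV was 0.598. The script was tested on simulated data. Groups come from the labels. The comparison, the 39 gene lists, described by medians and counts without a test, and the naming rule were chosen with earlier results of these data known. The rule takes Cdk18, Cdk16, Myc and Ctnnb1, called genes and the 25 smallest p, the 12 most abundant genes without overlap in each direction, up to 5 smallest-p members and the most abundant member of each list, and 4 genes within 5 Mb of Cdk18. Some genes it allows are not reported here, and Hk1, Pfkfb3, Slc2a3, Col18a1, Grhl2 and Ipo9 were named after their values were seen. Log2 fold changes and CPM were computed here from the deposited counts. Ratios of low counts carry exact 95% intervals. Positions are from GENCODE M21 (GRCm38), matched by symbol for 93.6% of tested genes, and promoters from RefSeq (GRCm38.p6). Alternatives were RLE and upper-quartile factors, DESeq2 1.42.0, no filter, a stricter filter (CPM of 5 in 5 libraries), only WT and CDK18KO, the replicate number as a block, a Y-linked covariate, leaving out 3 libraries above 100.0 CPM of Y-linked genes, and leaving out each library.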

Additional observations from a re-analysis of the deposited data

Results flagged for a closer look

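Within a group of 5 libraries a value is listed here when its gap to the nearest other value exceeded 0.71 of the group's range on a log2 scale. Of 356 groups of the named genes and library totals, 17 met this, where chance gives about 1 in 20.

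In WT 2, Cyp4a12a stood at 0.137 CPM against 0 in the other WT libraries, Dgat2 at 64.8 CPM against at most 15.4, and Esam at 54.3 CPM against at most 17.8. Pax9 was at 0 in WT 5 against at least 5.36 CPM. Prim2 was at 29.4 CPM in WT 3 against at most 23.1 and at 4.25 CPM in CDK18KO 2 against at least 7.6.

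CDK18KO 2 also stood apart at 710 CPM for Eny2, 414 CPM for Tbca, 12.8 CPM for Chd3, 625 CPM for Cyp2c68, 330 CPM for Saa3 and 15.4 CPM for Pfkfb3. CDK18KO 1 stood apart at 65.8 CPM for Cdk16, 0.311 CPM for Chl1 and 0.621 CPM for Pax9, where the other knockout libraries had no count of the last pair, and at 409 CPM for H19 and 35.7 CPM for Ccr2.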

How the results depend on the processing

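The count of called genes turned on the test more than on the scaling. It was 1 with RLE or upper-quartile factors and with the stricter filter, 942 with DESeq2 (608 higher, 334 lower), 173 with no filter on low counts (93 and 80), and 0 with only WT and CDK18KO in the fit, with the Y-linked covariate, or without the 3 libraries high in Y-linked expression. Leaving out 1 library gave 0 to 74 (0 to 15 higher, 0 to 59 lower), 74 without CDK18KO 1 and 0 otherwise. Genes at an unadjusted p numbered 4521 with no filter (2563 and 1958) and 1094 with the Y-linked covariate, of which 567 were higher. DESeq2 gave 1464 lower, and left-out libraries 1459 to 3276 (950 to 1931 higher, 509 to 1345 lower). Genes without overlap numbered 1578 without the Y-linked libraries (558 and 1020) and 395 to 1131 with 1 library left out (140 to 607 and 245 to 723), which fewer values make easier, 360 lower with no filter and 100 higher with upper-quartile factors. The cause of these shifts was not tested.

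The replicate numbers gave no clear pairing of the samples. Deviations of same-numbered libraries correlated at 0.0196, 0.305, -0.0381, -0.176 and -0.232, and those of differently numbered libraries at -0.493 to 0.41. Whether the numbers mark a shared batch was not tested. With the replicate number as a block 297 genes were called (225 higher, 72 lower), 1302 were lower at an unadjusted p, and the medians of the biliary and the homeobox lists were -1.88 and -2.76.

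Of 39 list medians, 9 changed sign under some setting. Without the Y-linked libraries the median was -1.95 for biliary genes, -2.14 for collagens and -2.76 for stellate cell markers. With 1 gene left of 2, T and NK cell markers were at 0.0485 under the stricter filter and 0.0659 with only WT and CDK18KO, and B cell markers, with 1 gene left of 4, at -0.969 under the stricter filter. With 1 library left out the medians ran from -1.98 to -0.975 (biliary), -2.24 to -1.07 (collagens), -2.16 to -0.987 (matrix), -2.77 to -1.07 (stellate), 1.08 to 3.65 (complement), 1.02 to 3.62 (P450), -0.747 to 0.372 (endothelial), -0.683 to 0.25 (erythroid), 1.44 to 2.3 (interferon) and 0.882 to 2.76 (acute phase). Cdk18 ran from -1.52 to -0.69 and gave no value under the stricter filter or with only WT and CDK18KO.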
